A study of Mus musculus with 34 samples.

Results

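Methylation of CpG islands in 2 undifferentiated mouse embryonic stem (ES) cell lines, EB5 and TT2, was compared with that in 5 post-implantation mouse embryos. Each line and each embryonic stage had 1 array, so 7 of the 34 arrays of the series were compared. The embryos were labelled E8.5, E9.5, E10.5 and E11.5 (all male) and E12.5 (female). No sex or passage was given for the ES cells. The study's methods give C57Bl/6 as the source of the mouse DNA. They name no strain for the established lines EB5 and TT2, so a shared strain of ES cells and embryos cannot be assumed. Sonicated and denatured DNA was precipitated with an antibody against 5-methylcytidine (mDIP), and the bound DNA (Cy5) was hybridised with its input (Cy3) to an Agilent mouse CpG island array. None of the 7 samples carried a treatment. A further ES cell array, labelled J1, was left out of the comparison and is given beside it. Nothing in the sources says whether arrays of a group came from separate cultures or animals. The spread behind the p-value of an island was shared by 28 arrays. Of these, 16 were from adult organs of 1 labelled age and were pooled as 1 group. The spread is thus in large part a spread between organs. Within the ES cells it is between lines, and within the embryos between days of gestation. The p-values of class means rest on the 7 arrays alone.

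The log ratio of each probe was turned into a Z-score within its array, and these Z-scores were averaged over the probes of an island to give its island methylation score (IMS). An IMS of 0 is thus the average probe of that array, and differences in IMS are in units of the SD of an array. Islands were runs of at least 3 probes with gaps of at most 500 bases. On the autosomes 13282 islands were scored, of which 11867 carried a gene name. The typical island held 5 probes over 657 bases (medians). Positions of islands are those of the mouse build mm9.

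CpG islands are stretches rich in CpG that often hold the start of a gene and are mostly free of methylation in normal cells. At imprinted loci the differentially methylated region carries methylation on the allele of 1 parent, set in the germ line and kept through the erasure that follows fertilisation, so that somatic cells give a signal between unmethylated and fully methylated. A further class of islands, among them those of many germline genes, is methylated in somatic tissue. ES cells are derived from the inner cell mass before implantation and are kept in culture, and the embryos studied here are from after implantation.

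Promoters from both ends of the comparison are shown, because the readout depends on the density of CpG in the island. They belong to islands with a probe within 100 bases of the annotated start of the gene. Of these, Zrsr1, Mcts2 and Nap1l5 are imprinted retrogenes and Msh4 is a meiotic gene, all with a lower IMS in ES cells, and Atf7ip and Slc32a1 had a higher IMS in ES cells. The sequences are those of RefSeq on GRCm38.p6 and run from 250 bases before to 50 bases after the start, 5′ to 3′ on the strand of the gene. The windows are chr11:22971755-22972054 (plus strand) for Zrsr1, chr2:152686898-152687197 (plus) for Mcts2, chr6:58907077-58907376 (minus) for Nap1l5, chr3:153904842-153905141 (minus) for Msh4, chr6:136518601-136518900 (plus) for Atf7ip and chr2:158610508-158610807 (plus) for Slc32a1. Capitals mark the CpG dinucleotides.
Zrsr1: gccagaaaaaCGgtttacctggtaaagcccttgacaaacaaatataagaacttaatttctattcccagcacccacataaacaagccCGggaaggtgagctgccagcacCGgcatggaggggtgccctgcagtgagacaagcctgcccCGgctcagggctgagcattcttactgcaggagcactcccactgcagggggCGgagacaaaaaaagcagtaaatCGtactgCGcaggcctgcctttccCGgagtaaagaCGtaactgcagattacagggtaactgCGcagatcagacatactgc
Mcts2: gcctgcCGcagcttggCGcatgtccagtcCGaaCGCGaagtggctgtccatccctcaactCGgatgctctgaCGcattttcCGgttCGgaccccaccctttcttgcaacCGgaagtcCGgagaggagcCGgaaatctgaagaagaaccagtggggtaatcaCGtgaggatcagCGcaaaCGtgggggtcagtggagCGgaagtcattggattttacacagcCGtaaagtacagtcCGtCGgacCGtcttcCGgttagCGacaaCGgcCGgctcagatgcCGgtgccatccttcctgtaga
Nap1l5: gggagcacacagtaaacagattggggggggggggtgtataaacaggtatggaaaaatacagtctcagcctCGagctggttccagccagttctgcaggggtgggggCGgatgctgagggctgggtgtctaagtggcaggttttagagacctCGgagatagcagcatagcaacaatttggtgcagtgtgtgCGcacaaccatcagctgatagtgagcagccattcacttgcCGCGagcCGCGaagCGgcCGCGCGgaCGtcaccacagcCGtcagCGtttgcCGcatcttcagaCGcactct
Msh4: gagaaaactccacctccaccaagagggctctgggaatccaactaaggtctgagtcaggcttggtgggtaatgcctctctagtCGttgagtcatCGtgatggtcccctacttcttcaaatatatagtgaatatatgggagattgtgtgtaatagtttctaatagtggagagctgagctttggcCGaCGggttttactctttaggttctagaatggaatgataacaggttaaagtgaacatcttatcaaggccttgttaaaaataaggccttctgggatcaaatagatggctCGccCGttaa
Atf7ip: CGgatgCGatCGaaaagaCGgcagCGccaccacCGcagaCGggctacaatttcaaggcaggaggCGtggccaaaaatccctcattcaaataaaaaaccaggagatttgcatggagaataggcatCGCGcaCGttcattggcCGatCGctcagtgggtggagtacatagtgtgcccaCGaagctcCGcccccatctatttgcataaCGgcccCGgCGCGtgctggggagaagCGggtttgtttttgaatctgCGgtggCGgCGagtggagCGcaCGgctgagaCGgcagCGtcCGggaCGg
Slc32a1: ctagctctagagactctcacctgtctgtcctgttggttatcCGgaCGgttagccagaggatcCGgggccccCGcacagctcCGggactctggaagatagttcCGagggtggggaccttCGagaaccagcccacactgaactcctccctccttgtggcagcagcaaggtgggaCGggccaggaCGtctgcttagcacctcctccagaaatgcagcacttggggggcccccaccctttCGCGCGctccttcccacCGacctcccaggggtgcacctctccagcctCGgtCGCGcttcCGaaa

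The windows hold 10 CpG in Zrsr1, 25 in Mcts2, 17 in Nap1l5, 6 in Msh4, 29 in Atf7ip and 17 in Slc32a1. Promoters of this kind could be read for 4179 of the scored islands, with a median of 23 CpG, against 7 CpG over all 32851 promoters of the table. The median was 22 CpG for the 74 of these islands that were higher in ES cells and 21 for the 117 that were lower. For 9 lower islands of imprinted genes it was 17. The hexamer TGCCGC, which in its methylated form is the site bound by ZFP57, a zinc finger protein that protects imprints, was searched on both strands (TGCCGC and GCGGCA). It was found in 4 of these 9 promoters, in 20.9% of the 4179 promoters and in 11.6% of all promoters. Mcts2 holds it at 1 position and Nap1l5 at 2, and the windows of Zrsr1, Msh4, Atf7ip and Slc32a1 do not contain these letters.

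The 7 arrays were not laid out evenly. TT2 shared its slide, its scan day and its version of the scanner software with the E8.5 embryo. EB5 shared a slide with an array of adult pancreas and was scanned with an earlier version, and the E9.5 to E12.5 embryos lay on 2 other slides. EB5 was on a grid of 97651 probes and the other 6 arrays on a grid of 88737. The SD of the log10 ratios was 0.395 in EB5 and 0.377 in TT2, below the range of 0.430 to 0.525 in the embryos. Bound DNA was well above background at 71.6% to 91.1% of the probes of an array, and the number of arrays limits the precision. On the array labelled J1, the deposited table and the scanner file correlated with r = 0.113 across probes, and the scanner file was used. Which of these belongs to J1 was not settled, so that the J1 values below are those of an array of uncertain identity.

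Islands differed in both directions between ES cells and embryos, with more of them lower than higher in ES cells. Increases and decreases below are differences of ES cells from embryos, and a change over time was not measured. The ES cell and embryo arrays were fitted together with 16 arrays of adult tissue and 5 of ES cells differentiated in vitro, so that 28 arrays shared 1 estimate of the spread (limma, Benjamini-Hochberg adjusted p under 0.05 over all islands). Between ES cells and embryos 768 of the 13282 islands (5.78%) differed. Of these, 268 (2.02%) had a higher and 500 (3.76%) a lower IMS in the ES cells. At an unadjusted p under 0.05 there were 2326 islands, 1113 higher and 1213 lower. Both ES arrays lay above all 5 embryos at 264 of the 268 higher islands, against 15.1% of all islands, and below all 5 at 491 of the 500 lower islands, against 12.7% of all islands. The islands were called from these same values, so that these counts describe the calls and give them no support. The difference was between 0.408 and 3.01 at the higher and between -3.35 and -0.407 at the lower islands. The median difference over all islands was 0.0326, against 0.882 for the higher and -1.15 for the lower islands.

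The 2 sets lay at different levels in the embryos. The embryo values also entered the calls, so that these levels are a description. At the higher islands the median IMS was -0.104 at E8.5, -0.249 at E9.5, -0.252 at E10.5, -0.195 at E11.5 and -0.240 at E12.5, against 0.663 in EB5 and 0.730 in TT2. In each embryo, then, the median of these islands was below the level of the average probe. The same held over all islands, with medians of -0.129, -0.190, -0.190, -0.165 and -0.243 from E8.5 to E12.5. At the lower islands the median was 1.78 at E8.5, 2.18 at E9.5, 2.27 at E10.5, 2.23 at E11.5 and 2.30 at E12.5, against 0.287 in EB5 and 0.469 in TT2. The E8.5 embryo had the lowest of the 5 medians at the lower islands and the highest at the higher islands. The mean IMS of the embryos was above 0.75 at 328 of the 500 lower islands (65.6%, against 9.49% of all islands) and below 0 at 204 of the 268 higher islands (76.1%, against 69.2% of all). Islands with the 2 groups at opposite ends of the range were few. At 26 of the higher islands all embryos were below 0 and both ES arrays above 0.75, and at 14 of the lower islands all embryos were above 0.75 and both ES arrays below 0.

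**Figure D1:**
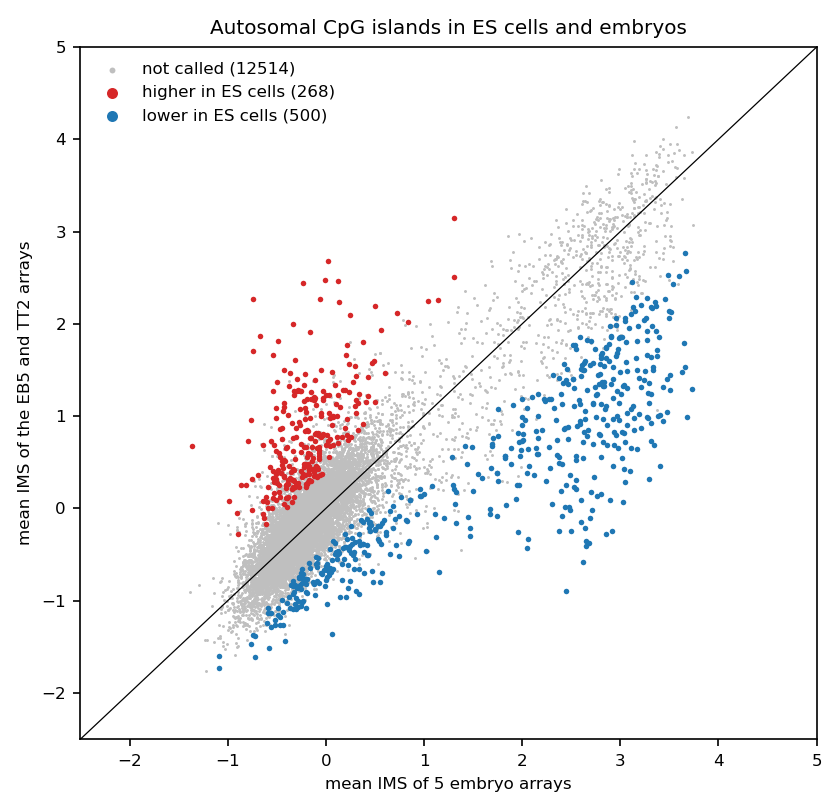
Each point is 1 autosomal island, with the mean IMS of the 5 embryo arrays on the horizontal and the mean IMS of EB5 and TT2 on the vertical axis, and the line marks equal values. The 500 islands lower in ES cells (blue) lie mostly where the embryos were above 0.75, and the 268 higher islands (red) mostly where the embryos were below 0.

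The slide that TT2 shared with the E8.5 embryo gives a difference within 1 slide. There, TT2 was above E8.5 at 268 of the 268 higher islands and below it at 499 of the 500 lower islands, and over all islands it had the direction of the full comparison at 7309 of 13282. Both arrays had entered the means by which the islands were called, so that this count is a description. The median of TT2 minus E8.5 was 0.766 at the higher and -0.825 at the lower islands. With the slide as a block this is the only comparison left, and 59 higher and 84 lower islands passed. Among the islands with the largest differences, the call was lost in that fit at Rbmxl2, Apoe, Zfp865 and Zfp282 (lower) and at Srcin1, Barhl1, Lyl1, Irx5 and Pmaip1 (higher), with adjusted p from 0.102 at Zfp282 to 0.648 at Irx5. With EB5 left out 131 islands were higher and 287 lower, and with TT2 left out 130 and 333. The share of higher islands among those called depended on the scale. It was 34.9% with Z-scores and 18.0% with median-centred log2 ratios, which are not divided by the smaller SD of the ES arrays (116 higher and 529 lower, with a median difference of -0.0888 over all islands). None of the 768 islands changed its sign on that scale.

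Adult tissue served to sort the islands. Its arrays also entered the estimate of the spread behind each call, so that the classes are not independent of the calls. On all 16 adult arrays 981 islands were above 0.75 and 4449 below 0. Of the 981 islands methylated in adult tissue, 287 were lower in ES cells (29.3%) and 2 were higher (0.204%). Of the 4449 islands unmethylated in adult tissue, 46 were higher (1.03%) and 96 lower (2.16%). The other 7852 islands gave 220 higher (2.80%) and 117 lower (1.49%), so that most of the higher islands were in neither class.

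The mean IMS of the islands methylated in adult tissue was 2.06 in EB5 and 1.96 in TT2. In the embryos it was 2.22 at E8.5, 2.50 at E9.5, 2.76 at E10.5, 2.63 at E11.5 and 2.68 at E12.5, with a mean of 2.56 ± 0.211 (SD, n = 5). Both ES arrays lay below all embryos. The difference of -0.551 had a two-sided exact permutation p of 0.0952, which is the smallest p that 2 arrays against 5 allow, and it was -0.262 within the slide of TT2 and E8.5. With J1 (2.88) counted as an ES array the difference was -0.262. Differentiated ES cells ranged from 1.80 to 2.45. At the islands unmethylated in adult tissue TT2 (-0.423) lay within the range of the embryos (-0.457 to -0.394) and EB5 (-0.476) below it. The difference was -0.0300 (exact permutation p = 0.286), beside an SD of 0.0255 between the embryos.

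**Figure D2:**
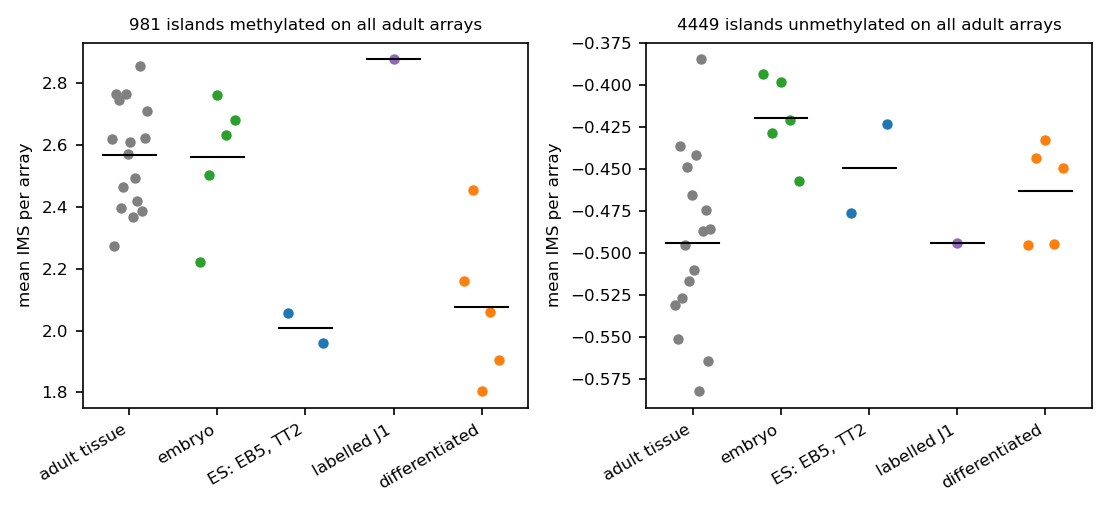
Points give the mean IMS per array over the 981 islands methylated (left) and the 4449 islands unmethylated (right) on all adult arrays, and horizontal lines give the mean of each group. At the methylated islands EB5 (2.06) and TT2 (1.96) lie below the 5 embryos (2.22 to 2.76), and the vertical axes cover different ranges in the 2 panels.

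Imprinted genes were lower in ES cells at 20 of 50 islands (40%, against 3.76% of all islands), and 0 were higher. Among the 22 of these islands that were methylated in adult tissue, 18 were lower (81.8%, against 29.3% of all such islands). The median difference of the 22 was -2.49, against -0.412 for all 981 islands methylated in adult tissue. Over the 18 islands the IMS ranged from -0.433 to 1.03 in EB5 and from -1.59 to 1.02 in TT2, against 1.23 to 3.62 in the embryos. Both ES arrays were below 0.75 at 15 of the 18 islands and below 0 at 5, and every embryo was above 0.75 at all 18. With the slide as a block 15 of the 18 passed.

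The largest decrease of all islands was at Zrsr1, a retrogene for a splicing-related protein that lies inside Commd1 (chr11:22872000-22873052, 9 probes, over the start of the gene). Its IMS was -0.204 in EB5 and -1.59 in TT2, against 2.09, 2.38, 2.63, 2.51 and 2.64 from E8.5 to E12.5. The difference was -3.35 (SE 0.329, adjusted p = 2.96e-08). An island inside Igf2r, the receptor that clears IGF2, followed (chr17:12934260-12935460, 10 probes). It lies 15 bases from an annotated start, and the non-coding RNA Airn is known to start in an intron of Igf2r. EB5 had -0.365 and TT2 -0.787, and the embryos had 2.30, 2.69, 2.90, 2.63 and 2.55, a difference of -3.19 (SE 0.277, adjusted p = 5.77e-09). At both loci the ES cells were below 0 and every embryo was above 2. The island at the start of Igf2r itself had 0.377 and 0.517 in the ES cells and 1.46 to 2.53 in the embryos, and its difference of -1.54 did not pass (adjusted p = 0.0591).

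Mcts2, a retrogene in an intron of H13, had an IMS of 0.232 in EB5 and -0.788 in TT2 (chr2:152512463-152513054, 5 probes). The embryos had 2.43, 2.99, 2.99, 2.84 and 3.05, and the difference was -3.13 (SE 0.357, adjusted p = 3.96e-07). The island at the start of H13 itself had a difference of 0.183 and did not pass (adjusted p = 0.517). Inside Kcnq1, a potassium channel gene, the island lay 188032 bases from the start (chr7:150481208-150482535, 8 probes), in the part of the gene where the non-coding RNA Kcnq1ot1 begins. It had -0.433 in EB5 and -0.392 in TT2, against 2.35, 2.53, 2.94, 2.55 and 2.88 in the embryos. This difference of -3.06 had the smallest adjusted p of all islands (SE 0.214, adjusted p = 1.67e-10), whereas the island at the start of Kcnq1 had a difference of -0.139 (adjusted p = 0.799).

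The island shared by Peg3, a paternally expressed zinc finger gene, and Usp29 had -0.149 in EB5 and -0.605 in TT2 (chr7:6682111-6683212, 9 probes). In the embryos it had 2.24, 2.58, 2.84, 2.74 and 3.00, a difference of -3.06 (SE 0.268, adjusted p = 5.77e-09). Grb10, which encodes an adaptor that restrains growth, had -0.139 and -0.276 in the ES cells at an island 1651 bases from its start (chr11:11925467-11926345, 10 probes). The embryos had 2.07, 2.72, 2.95, 2.78 and 2.70, and the difference was -2.85 (SE 0.257, adjusted p = 8.81e-09). Islands at and near the main start of Grb10 had differences of 0.0702 and 0.175 (adjusted p = 0.938 and 0.726). At Kcnq1, Grb10 and Igf2r, then, the island within the gene passed and the one at the gene's own start did not. At Gnas, which encodes the stimulatory G protein α subunit and has several promoters, 3 of 4 islands were lower, by -2.65, -2.46 and -2.33, and the fourth had a difference of 0.121 (adjusted p = 0.859).

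The other lower islands of this set were those of Nap1l5, a nucleosome assembly gene (-2.73), the amino acid transporter Slc38a4 (-2.63), the retrotransposon-derived Peg10 (-2.62), the zinc finger gene Plagl1 (-2.52), Nnat (-2.25), Mest (-2.22), the cell cycle inhibitor Cdkn1c (-2.13), Inpp5f (-2.03) and Peg12 (-1.83). Their adjusted p lay between 6.86e-07 at Nnat and 0.00115 at Peg12. Peg12 had the smallest of these differences, with -0.0813 in EB5 and 0.294 in TT2 against 1.23 to 2.33 in the embryos. Mest had 0.618 in EB5 and 1.02 in TT2 against 2.11 to 3.62. Of the islands not methylated in adult tissue, Mkrn3, a zinc finger gene of the Prader-Willi cluster, was lower by -1.55 (adjusted p = 8.05e-05) and Phlda2, which restrains placental growth, by -0.714 (adjusted p = 0.00484).

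Methylated islands of 3 listed genes were not lower. An island assigned to Usp29 had 3.39 in EB5, 2.92 in TT2 and 2.78 to 3.17 in the embryos. Trappc9 had 3.70 and 3.64 against 2.96 to 3.78 at an island before its start and 3.80 and 3.04 against 2.42 to 3.03 inside the gene. An island 6211 bases into Dlk1, which encodes a ligand of the Notch family, had 2.60 and 2.07 against 1.51 to 1.80, a difference of 0.626 (adjusted p = 0.182). The islands at the starts of Dlk1, Igf2, Ascl2 and Ube3a, which are not sites of germline imprints, were below 0 in every embryo and did not pass either.

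**Figure D3:**
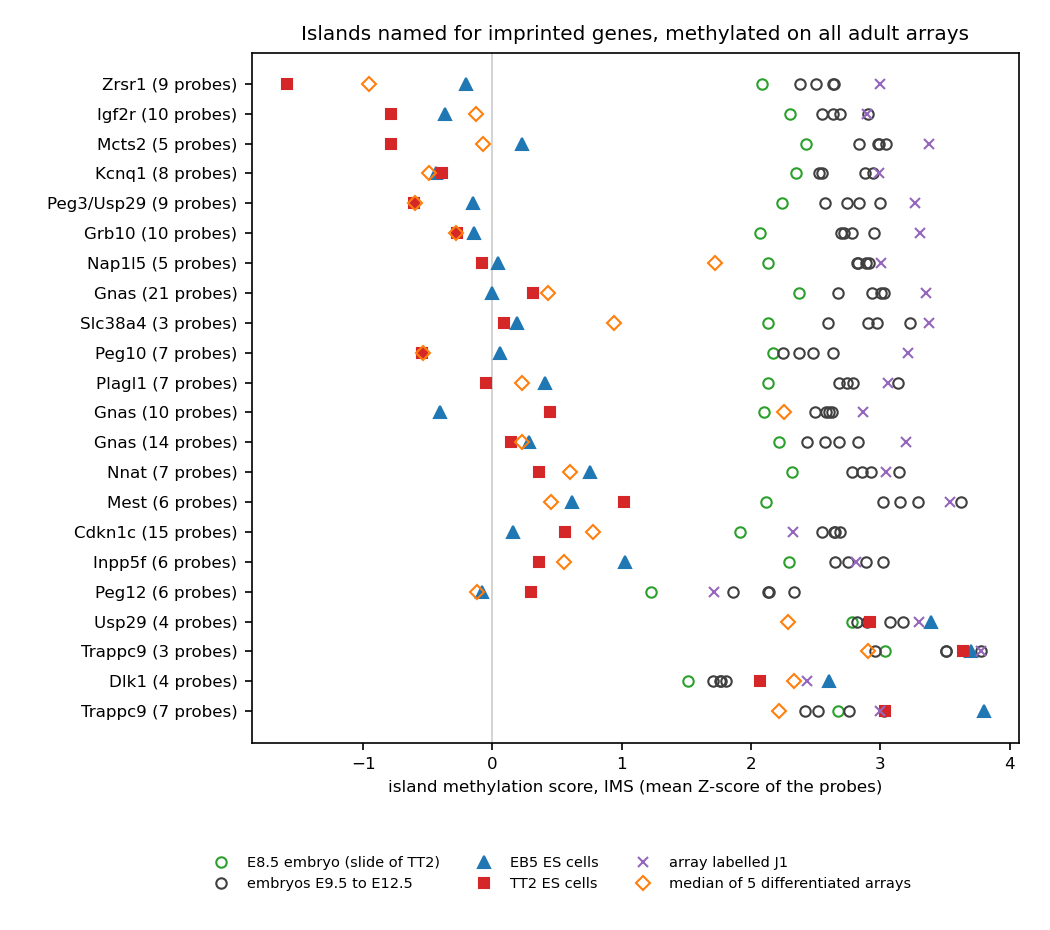
The IMS of the 22 islands named for imprinted genes and methylated on all adult arrays is plotted per array, with islands ordered by the difference between ES cells and embryos. At the upper 18 islands EB5 and TT2 lie between -1.59 and 1.03 and the embryos between 1.23 and 3.62. At each of these islands the array labelled J1 lies within the range of the embryos or above it.

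The array labelled J1 was at or above the lowest embryo at 18 of these 18 islands, with 1.72 to 3.54. The median of the 5 arrays of differentiated ES cells, which were made from EB5 (endoderm in duplicate and mesoderm) or TT2 (embryoid bodies and retinoic acid treatment), was nearer to the ES cells at 16 of 18, and nearer to the embryos at Nap1l5 (1.72) and at 1 island of Gnas (2.25). Over all called islands J1 was nearer to EB5 and TT2 at 43 of the 268 higher and 102 of the 500 lower islands, and at 5424 of all 13282 islands. The differentiated cells were nearer to them at 228 and 259, and at 5616 of all islands. Their median was 0.895 at the higher and 1.52 at the lower islands, against 0.730 and 0.394 for the mean of EB5 and TT2.

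Germline genes gave 5 lower islands among 35 (against 3.76% of all islands) and 0 higher. Of 18 that were methylated in adult tissue 4 were lower (22.2%, against 29.3% of all such islands) and 14 were not. Msh4, which acts in meiotic recombination, had -0.878 in EB5 and 0.386 in TT2 at its start (chr3:153568738-153569074, 4 probes), against 2.52, 2.90, 3.20, 2.93 and 3.05 in the embryos. Both ES arrays were thus far below the embryos, although they differed from each other, and the difference was -3.17 (SE 0.329, adjusted p = 8.01e-08). Boll, an RNA-binding gene of the DAZ family, was lower by -1.94 (adjusted p = 0.000436). Stk31, a kinase gene of the testis, was lower by -1.57 (adjusted p = 0.00207), the RNA helicase gene Ddx4 by -1.20 (adjusted p = 0.0412) and the piRNA pathway gene Tdrd1 by -1.05 (adjusted p = 0.0230). Among the 14 islands methylated in adult tissue that did not pass, 13 were above 0.75 in both ES lines, and Dmc1, a meiotic recombinase gene, had 0.472 and 0.145. Dazl had 3.95 in EB5 and 3.08 in TT2 against 2.65 to 3.66 in the embryos, and the synaptonemal complex genes Sycp1 and Sycp3 had 2.75 and 2.23 against 2.85 to 3.35 and 2.94 and 2.52 against 2.51 to 3.49. Tuba3a, a tubulin gene of the testis, had 4.18 and 3.51 against 3.17 to 3.71. With the slide as a block 1 germline island was lower, without EB5 there were 2 and without TT2 there were 3.

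Pluripotency genes had 18 scored islands, and 0 of them were named Pou5f1 or Nanog. Of the 18, 1 was lower (5.56%, against 3.76% of all islands). An island inside Esrrb, which encodes a nuclear receptor of the pluripotency network, was the one that passed. It lay 108826 bases from the start (chr12:87810864-87811528, 5 probes), with -0.282 in EB5 and -0.0198 in TT2 against 1.98, 2.72, 2.95, 2.65 and 2.71 in the embryos. The difference was -2.75 (SE 0.255, adjusted p = 1.11e-08), and it passed with the slide as a block (adjusted p = 0.0346). No other island of the list passed. The islands at the starts of Sox2 and Klf4 were below 0 in the ES cells and in all embryos, and 3 further islands of Sall4 had 2.20, 2.97 and 2.72 in EB5 and 2.00, 2.94 and 2.14 in TT2. Their differences were -0.754, -0.503 and -0.248 (adjusted p = 0.0814, 0.426 and 0.673).

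Among genes that write, read or erase DNA methylation or act with them, 3 of 36 islands were lower and 0 higher (against 3.76% and 2.02%). Mbd3, a member of the methyl-CpG-binding family found in the NuRD complex, had -0.324 in EB5 and 1.13 in TT2 at an island 3701 bases into the gene (chr10:79858095-79858432, 3 probes). The embryos had 2.78, 2.77, 3.21, 3.22 and 3.50, and the difference was -2.69 (SE 0.300, adjusted p = 2.81e-07). The promoter island of Mbd3 (9 probes) had a difference of -0.0569 and did not pass (adjusted p = 0.876). An island named for Ska1 and Cxxc1, which encodes a protein that binds unmethylated CpG, was lower by -1.17 (adjusted p = 0.000166). A further island named for the same genes, 6 bases from an annotated start, had a difference of -0.258 and did not pass (adjusted p = 0.497). The promoter of Suz12, a subunit of Polycomb repressive complex 2, had -0.447 and -0.751 against 0.174, 0.295, 0.247, 0.0878 and 0.000877, a difference of -0.760 (SE 0.143, adjusted p = 0.000659) at levels near that of the average probe. None of the 3 lower islands passed with the slide as a block (adjusted p = 0.0625, 0.433 and 0.0566). The islands of Dnmt1, Dnmt3a and Dnmt3b, the DNA methyltransferases, had differences between -0.00935 and 0.246 and did not pass.

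Zinc finger genes had 24 lower islands and 1 higher island of 250 (9.60% and 0.400%, against 3.76% and 2.02%). Of 37 that were methylated in adult tissue 17 were lower (45.9%, against 29.3% of all such islands), and the median difference of these 37 was -0.955, against -0.412. Zfp865 had -0.172 in EB5 and 1.09 in TT2 (chr7:4981772-4983130, 10 probes), and the embryos had 2.63, 3.47, 3.76, 3.64 and 3.49. The difference was -2.94 (SE 0.335, adjusted p = 4.02e-07). Zfp282 had -0.00187 and 0.176 against 1.98, 2.47, 3.35, 3.23 and 3.44, a difference of -2.81 (SE 0.394, adjusted p = 1.12e-05), and Zfp358 was lower by -2.66 (adjusted p = 2.96e-08). At these 3 islands EB5 was the lower of the ES lines and every embryo lay above both. The higher island was that of Zfp608 (1.06, adjusted p = 0.000678). With the slide as a block 7 islands of zinc finger genes were lower, and 15 without TT2.

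Other large decreases belonged to single genes. Rbmxl2, a retrogene for an RNA-binding protein of the testis, had -0.826 in EB5 and 0.114 in TT2 (chr7:114352641-114353800, 7 probes). Its embryos had 2.17, 2.63, 2.86, 2.72 and 2.85, a difference of -3.002 (SE 0.460, adjusted p = 4.08e-05). Apoe, which encodes a carrier of lipids, had -0.252 and 0.399 against 2.60, 2.99, 3.24, 3.22 and 3.08 at an island 1946 bases from its start (chr7:20281867-20282450, 5 probes), a difference of -2.95 (SE 0.434, adjusted p = 2.24e-05). An island inside AB112350 was lower by -2.98 (adjusted p = 1.11e-08). In each of these 3 EB5 was lower than TT2 and both were below all embryos. Bcl11a, a regulator of blood development, was lower by -2.35 (adjusted p = 2.04e-08) with 0.945 and 0.791 in the ES cells.

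Of the signalling genes 4 islands of 147 were lower and 5 higher (against 3.76% and 2.02% of all islands), and Wnt genes were found in both directions. The island over Fzd5, a Wnt receptor, covered 25 probes (chr1:64781318-64784655) and had -0.445 in EB5 and -0.153 in TT2, against 1.24, 1.43, 1.65, 1.45 and 1.56 in the embryos. The difference was -1.76 (SE 0.244, adjusted p = 9.35e-06). Islands inside the ligand genes Wnt5a and Wnt7b were lower by -1.67 and -1.23 (adjusted p = 0.000500 and 0.00200), and those of Wnt1 and Wnt6 were higher by 0.884 and 1.21 (adjusted p = 0.0144 and 0.0225). The largest increase of the list was at the BMP family ligand Gdf7, with 1.54 and 1.37 against -0.0101, -0.191, -0.334, -0.273 and -0.260 (difference 1.67, SE 0.231, adjusted p = 9.58e-06). The list gave 3 higher islands without EB5, 1 without TT2, 3 without the E10.5 embryo, 1 with the slide or day as a block and 0 with the software. None of its 4 lower islands passed with the slide as a block (adjusted p = 0.182 at Fzd5).

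Of the clustered protocadherins, cell surface proteins whose alternative promoters are chosen cell by cell in neurons, 4 of 12 islands were lower (33.3%, against 3.76% of all islands), all in the α cluster. Of 7 that were methylated in adult tissue 3 were lower (42.9%, against 29.3% of all such islands). Pcdha12 had -0.333 in EB5 and -1.04 in TT2 against 1.01 to 1.40 in the embryos (difference -1.84, adjusted p = 0.00457). Pcdha4 was lower by -1.47 (adjusted p = 4.89e-05), Pcdha10 by -1.43 (adjusted p = 0.00151) and Pcdha6, chosen after its values were seen, by -1.14 (adjusted p = 0.00208). TT2 was the lower of the ES lines at each of them, and at Pcdha10 EB5 (2.09) overlapped the embryos (2.07 to 3.16). With the slide as a block 2 of the 4 passed.

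On the other side of the comparison, the largest increase was at an island without a gene name (chr5:120246491-120246888, 5 probes), more than 2000 bases from any annotated start. It had an IMS of 2.26 in EB5 and 2.27 in TT2, against -0.392, -0.852, -0.769, -1.01 and -0.711 in the embryos. The difference was 3.01 (SE 0.259, adjusted p = 5.68e-09). Srcin1, which encodes an inhibitor of Src kinase, had 2.54 and 2.34 at an island within the gene (chr11:97413036-97413366, 4 probes), against -0.200, -0.446, -0.223, -0.134 and -0.149 (difference 2.67, SE 0.405, adjusted p = 3.45e-05). These islands were below 0 in every embryo and above 2 in both ES lines. Atf7ip, a partner of the histone methyltransferase SETDB1, had 2.79 and 2.57 over its start (chr6:136467067-136467757, 6 probes). The embryos had -0.156, 0.00243, 0.201, 0.0495 and -0.0106, a difference of 2.66 (SE 0.272, adjusted p = 6.50e-08), and adult tissue ranged from -0.705 to 0.0983.

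Among the other large increases, Slitrk1, a transmembrane protein of neurons, had 1.84 in EB5 and 1.89 in TT2 against -1.20, -0.438, -0.582, -0.522 and -0.609 (chr14:109310483-109310754, 3 probes). The difference was 2.54 (SE 0.257, adjusted p = 5.60e-08). Slc32a1, the vesicular transporter of GABA and glycine, had 1.07 and 2.27 at the island over its start (chr2:158439467-158440727, 13 probes), against -0.295, -0.731, -0.561, -0.619 and -0.484, a difference of 2.20 (SE 0.283, adjusted p = 2.69e-06). All 3 scored islands of Slc32a1 were higher. Slc7a14, a transporter gene, was higher by 2.10 (adjusted p = 1.98e-05). None of these 3 genes is in the list of neuronal channels and receptors, of which 6 of 148 islands were higher and 4 lower (4.05% and 2.70%, against 2.02% and 3.76%), with Kcns1, Drd4 and Grin2c higher by 0.954, 0.950 and 0.706. Both scored islands of the dopamine receptor gene Drd4 were higher. Of this list 3 islands were higher without EB5, 3 without TT2, 1 in the fit that blocks on the slide and 0 with the day or the software as a block.

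Other islands with large increases were those of D11Bwg0517e (2.49, adjusted p = 5.77e-09), the microfibril gene Mfap2 (2.34, adjusted p = 1.11e-05) and Pmaip1, which encodes the pro-apoptotic NOXA. At D11Bwg0517e the ES cells had 2.26 and 2.69 and the embryos -0.107 to 0.0874. At Pmaip1 the ES lines were far apart, with 3.02 in EB5 and 0.622 in TT2 against -0.780 to -0.0113 in the embryos (difference 2.31, SE 0.454, adjusted p = 0.00108).

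Homeobox genes outside the Hox clusters had 28 higher islands in 22 genes among 293 islands of 119 genes (9.56%, against 2.02% of all islands) and 2 lower islands, both of Zfhx3. Their median difference was 0.246, against 0.0326 over all islands. Both ES arrays were above all embryos at 114 of the 293 islands (38.9%, against 15.1% of all). Over the 28 islands EB5 ranged from -0.146 to 2.24, TT2 from -0.0332 to 1.76 and the mean of the embryos from -0.819 to 0.310, and 24 had an embryo mean below 0. An embryo mean below 0 was also found at 76.1% of all higher islands and at 69.2% of all islands. Above 0.75 in both ES lines were 12 of the 28, against 99 of all 268 higher islands. The list gave 13 higher islands without TT2 and 11 in the fit that blocks on the slide.

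Barhl1, a homeobox gene of the developing nervous system, had 1.91 in EB5 and 1.50 in TT2 at an island within the gene (chr2:28766852-28767586, 4 probes). The embryos had -0.320, -0.676, -1.17, -0.935 and -0.611, and the difference was 2.45 (SE 0.351, adjusted p = 1.52e-05). Of the 5 scored islands of Barhl1, 3 were higher. Irx5, an Iroquois gene of heart and limb patterning, had 2.24 and 1.76 downstream of the gene (chr8:94889418-94889853, 4 probes), against -0.187, -0.452, -0.361, -0.356 and -0.301. Its difference of 2.33 had a large error (SE 0.687, adjusted p = 0.0384), and adult tissue ranged from -0.664 to 2.86. Nkx2-5, a regulator of heart development, had 1.40 and 1.59 at an island upstream of its start (chr17:26981065-26981837, 8 probes). Its embryos had -0.805, -0.389, -0.354, -0.205 and -0.400, and the difference of 1.93 (SE 0.240, adjusted p = 1.62e-06) also passed with the slide as a block (adjusted p = 0.000682). Irx4 and Pax5, chosen after their values were seen, had 2 higher islands each, of 5 scored in either gene.

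In the Hox clusters, 2 of 66 islands were higher (3.03%, against 2.02%) and 0 lower, and the median difference was 0.114. Hoxb4 had 1.59 in EB5 and 1.14 in TT2 against -1.30, -0.417, -0.316, -0.505 and 0.0475 (chr11:96175762-96176362, 5 probes, before the start), a difference of 1.86 (SE 0.451, adjusted p = 0.00879). Hoxa7 had 0.292 and 0.736 against -0.401, -0.530, -0.345, -0.554 and -0.416, a difference of 0.963 (SE 0.182, adjusted p = 0.000694). Both passed with the slide as a block. Whether the share in the Hox genes differs from that in the other homeobox genes was not tested.

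Further developmental transcription factors gave 18 higher and 2 lower islands of 270 (6.67% and 0.741%, against 2.02% and 3.76%), with a median difference of 0.204. Lyl1, a basic helix-loop-helix factor of blood cells, had 2.62 in EB5 and 2.31 in TT2 (chr8:87225427-87225843, 5 probes, over the start). The embryos had 0.346, 0.104, 0.128, 0.0355 and 0.0144, a difference of 2.34 (SE 0.436, adjusted p = 0.000586), and J1 had 1.00. Tbx4, a T-box gene of the hindlimb, was higher by 1.56 at an island before its start (adjusted p = 0.00387), where J1 was at 1.50 and the median of adult tissue at 1.08. Sall3 was higher by 1.30 at an island before its start and lower by -1.96 at an island inside the gene (adjusted p = 0.00515 and 2.89e-05). The list gave 5 higher islands without EB5, 5 without TT2 and 2 in the fit that blocks on the slide.

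**Figure D4:**
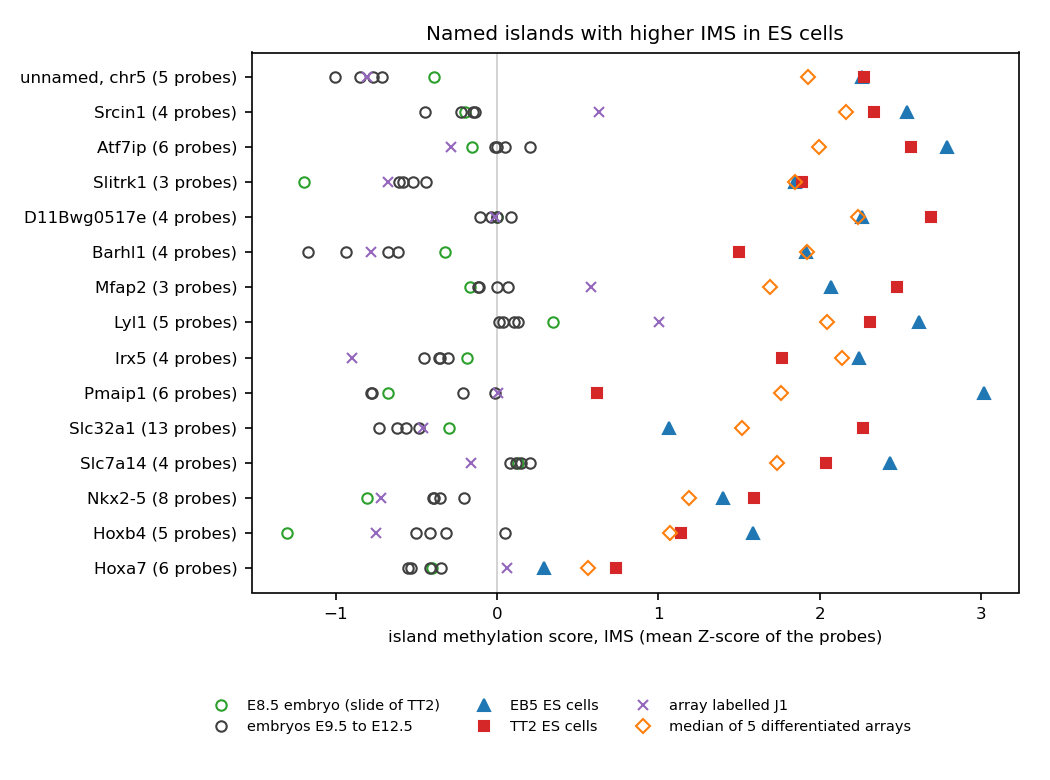
The IMS per array is plotted for the named islands with the largest increases and for the named homeobox and Hox islands that were higher in ES cells, ordered by the difference. EB5 and TT2 lie above every embryo at each island, and the median of the differentiated ES cells lies on the side of the ES cells.

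Extracellular matrix genes had 6 higher islands and 1 lower island of 68 (8.82% and 1.47%, against 2.02% and 3.76% of all islands). Mmp9, a gelatinase, was higher by 1.41 with 0.902 in EB5 and 1.62 in TT2 against -0.206 to -0.0949 in the embryos (adjusted p = 8.66e-05), and both of its islands passed. The list gave 3 higher islands without TT2, 1 with the slide, day or software as a block and 0 with normexp background correction. Adamts20 and Col12a1 were higher by 0.677 and 0.655 (adjusted p = 0.00115 and 0.0439). Of the tumour suppressor genes 1 island of 51 was higher (1.96%, against 2.02%), that of Fhit (0.833, adjusted p = 0.0178). Genes of cytosolic and mitochondrial ribosomal proteins, which are active in all cells, had 4 lower islands and 0 higher among 175 (2.29% lower, against 3.76%), with differences between -0.768 and -0.619 and embryo levels near 0. Clustered histone genes had 0 called of 20 islands, and the median difference of these was -0.0869.

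**Figure D5:**
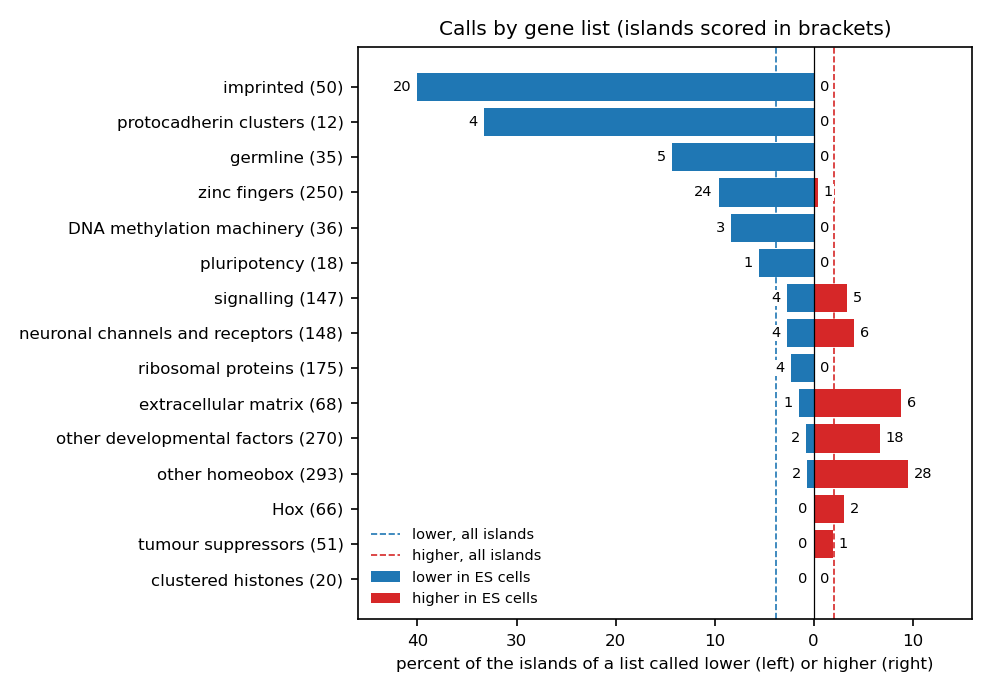
Bars give the share of the islands of each gene list that were lower (left, blue) or higher (right, red) in ES cells than in embryos, with the number of islands beside each bar and the number scored in brackets after the name, and dashed lines mark the shares over all islands (3.76% and 2.02%). The imprinted list has the largest share of lower islands (40%) and the other homeobox genes the largest share of higher islands (9.56%).

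Both sets of islands lay farther from annotated starts than the islands as a whole. Within 500 bases of a start lay 153 of the 268 higher islands (57.1%) and 248 of the 500 lower islands (49.6%), against 74.3% of all islands. Beyond 2000 bases lay 32.8% of the higher and 44.6% of the lower islands, against 20.7% of all. By the annotation of the array, 4.89% of the islands inside genes were lower and 1.93% higher. Of the islands in promoters 1.96% were lower and 1.72% higher, of those downstream of genes 2.46% and 3.19%, and of those without annotation 2.81% and 2.92%. Islands between divergent genes gave 1.75% lower and 1.05% higher, and those of mixed annotation 2.78% and 1.65%. By chromosome, lower islands were most frequent on chromosomes 8 (7.35%) and 7 (5.99%) and higher islands on chromosomes 14 (4.44%) and 2 (3.63%).

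EB5 and TT2 differed by more than 1 in IMS at 240 of all islands (1.81%), at 11 of the 268 higher islands and at 19 of the 500 lower islands. With 1 array for each line these differences have no test. At the higher islands the median of TT2 minus EB5 was -0.0393 and at the lower islands 0.0592, against 0.0396 over all islands.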

How the data were processed

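Mouse DNA enriched with an antibody against 5-methylcytidine was hybridised with its input to Agilent CpG island arrays. The deposited scanner files hold, per probe, the log10 ratio of bound (Cy5) over input (Cy3) after the background subtraction and dye normalisation of Agilent Feature Extraction, and the median intensity of each channel, which the authors left unadjusted. The authors also deposited a table of probe scores, which are Z-scores corrected for melting temperature, used here as an alternative only. The temperature step was not applied to the scanner values. No column of per-sample values was left unassigned (0 columns), and positions are those of mm9, which the headers of some files name.

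Control probes and flagged probes were left out, log ratios were standardised within each array and averaged over islands, and X and Y were dropped. Islands were tested with limma 3.58.1 in R 4.3.3 (lmFit and eBayes) in 4 groups, 16 adult, 5 embryo, 2 ES and 5 differentiated arrays, at a Benjamini-Hochberg adjusted p under 0.05. Each p printed for an island is from this fit. Class means were compared with a two-sided exact permutation test over all splits of the ES and embryo arrays, with the smaller tail doubled. Tables were handled in Python 3.11.15 with numpy 2.4.6 and pandas 2.3.3. Scripts were tested on simulated data. Islands methylated and unmethylated in adult tissue were those above 0.75 and below 0 on all 16 adult arrays of 8 organs.

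Named were the 12 largest differences in each direction with both ES arrays outside the range of the embryos, 1 island per gene, the leading 3 genes per direction of each of 15 gene lists, and members of the lists of imprinted, germline, pluripotency and DNA methylation genes. The comparison, its members and the lists were chosen with earlier results of these data known. Of 12324 gene names in the files, 9000 were current symbols and 2037 were updated from synonyms. Alternatives changed the scaling, background correction, islands, samples, model and batch blocks, and those on the median signals, on the probes shared by both grids and on the gene lists were chosen after seeing the data. The arrays of adult organs were all labelled as 3 months of age. The arrays of teratomas, β cells and cell lines of the pancreas were not used. The number of arrays limits the precision.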

Additional observations from a re-analysis of the deposited data

Results flagged for a closer look

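Of 65 sets of embryo values, those of the 63 named islands and of the 2 class means, 6 held an embryo that stood apart from the other 4 by Dixon's ratio (critical value 0.71), where chance gives about 1 in 20. In 5 of the 6 this was the E8.5 embryo, which shared its slide with TT2. E8.5 had an IMS of 2.63 at Zfp865 (the others 3.47 to 3.76), 2.07 at Grb10 (2.70 to 2.95), 2.20 at the lower island of Sall3 (2.91 to 3.15), 1.69 at Boll (2.28 to 2.47) and -1.20 at Slitrk1 (-0.609 to -0.438). E9.5 had -0.446 at Srcin1 (-0.223 to -0.134). At each of these islands both ES arrays lay outside the range of all 5 embryos. The islands were named by their differences in these same values, so that this is a description and gives the calls no support.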

How the results depend on the processing

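Counts of islands higher and lower in ES cells depended on the batch, the lines and the samples that set the spread. Against 268 higher and 500 lower there were 59 and 84 with the slide as a block, 68 and 93 with the scan day, 48 and 107 with the scanner software, 63 and 90 with normexp of the median signals, 112 and 277 with J1 as a further ES array, 688 and 790 with only the ES and embryo arrays in the fit, 159 and 311 with at least 5 probes, and 124 and 313 at an adjusted p under 0.01. Median-centred log2 ratios gave 116 higher and 529 lower. Leaving out 1 array gave 130 to 344 higher and 287 to 553 lower. The share of higher islands among the calls, 34.9%, became 47.2% with the deposited table (307 and 344 of 6545 islands), 46.5% with only 7 arrays in the fit and 44.5% with the methods' t-test (303 and 378 after adjustment, and 3049 unadjusted). With the slide as a random block there were 271 and 546.

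Over the alternatives that keep the same islands, the count of lower islands of imprinted genes ran from 13 (normexp) to 22 and that of zinc finger genes from 7 to 31. Higher islands ran from 9 to 58 for the other homeobox genes and from 2 to 42 for the developmental factors. On median-centred log2 ratios these were 16 and 5, with 1 for the signalling list, 1 for the neuronal list and 3 for the matrix list. Of 63 named islands 36 lost their call with the slide as a block, 37 with the day, 32 with the software, 32 with normexp, 17 with J1, 17 without EB5, 13 without TT2, 10 in the t-test and 9 with centred ratios, and 0 changed direction. The difference at islands methylated in adult tissue was negative under each alternative, and -0.635 to -0.501 with 1 array left out. At unmethylated islands (-0.0300) it turned to 0.0023 with quantile normalisation, 0.0223 with the deposited table, 0.00294 with normexp and 0.00596 with classes cut at 0.25 and 0.5, and ran from -0.0564 to -0.00366 with 1 array left out. The cause was not tested. Normexp of the mean signals was not run, since several scanner files hold median signals only. No paired analysis was possible because the labels link no ES line to a day of gestation, and 1 slide alone, that of TT2 and E8.5, held both groups.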

Other observations

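Some islands separated the ES lines from each other, with 1 array for each line and no test, and were chosen after their values were seen. At 150 islands EB5 was above TT2 by more than 1 in IMS, and at 90 islands TT2 was above EB5. TT2 was the higher line in the γ cluster of the protocadherins. An island of Pcdhga12 had an IMS of 0.146 in EB5 and 3.32 in TT2, with a mean of 0.868 in the embryos and 2.70 on the array labelled J1. A second island of Pcdhga12 had 0.0815 and 2.08, one of Pcdhga11 had 0.601 and 2.86, and one between Pcdhgb8 and Pcdhga11 had 0.426 and 2.53. In the α cluster TT2 was the lower line. Samd12 had -0.00181 in EB5 and 2.77 in TT2. EB5 was the higher line at Nefm, which encodes a neurofilament subunit (2.32 and -0.146), at the stress response gene Atf4 (2.19 and -0.231) and at Rgcc (2.59 and 0.208). Nefm, Atf4 and Rgcc counted among the higher islands of the comparison with embryos, which at these genes rests mostly on EB5. Their differences were 1.59, 1.48 and 1.70 (adjusted p = 0.00250, 0.0246 and 0.00301 by limma).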
